A study of Monodelphis domestica with 6 samples.

Results

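Heat shock proteins and chaperones were compared between neonatal skin fibroblasts (neoSFs) of Monodelphis domestica, a laboratory opossum, and the induced pluripotent stem cells (monoiPSCs) reprogrammed from them. The members were taken by gene symbol, as every gene of the HSP90, HSPA, HSPB, HSPD, HSPE and HSPH series, the DNAJA, DNAJB and DNAJC series, the numbered CCT subunits and the numbered BAG genes, which also takes in HSPBAP1. Of the 35665 genes in the deposited tables, 74 were members. The neoSFs were primary cultures of wild-type female pups from 2 inbred strains, FD2M1 and LSD1, with 1 library per strain, grown in serum-containing fibroblast medium. The monoiPSCs came from neoSFs of the same strains after nucleofection with OriP/EBNA episomal plasmids for human OCT4, SOX2, NANOG, KLF4, LIN28 and cMYC, and were kept without feeders or serum in a medium with human LIF, bFGF and the ROCK inhibitor Y27632. There was 1 line per strain, each sequenced at passage 15 and passage 25, so the 4 monoiPSC libraries are 2 passages of 2 lines, and line and strain cannot be told apart. No separate cultures are named for a strain, and p-values measure only the spread between these libraries.

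Chaperones bind unfolded or partly folded proteins and let them fold, move or be degraded. HSP70 proteins work in cycles of ATP hydrolysis, in which J-domain proteins of the DNAJ series start the cycle and nucleotide exchange factors, such as the HSP110 proteins and several BAG proteins, end it. Clients then pass to HSP90 or to the barrel-shaped chaperonins, which are CCT in the cytosol and the HSPD1 and HSPE1 complex in mitochondria, while small heat shock proteins hold clients without ATP. Pluripotent cells and fibroblasts differ in what they fold, since fibroblasts secrete large amounts of collagen through the endoplasmic reticulum (ER).

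Values are given as the normalized read count (NRC), the deposited DESeq-normalized read count of a gene in a library. Totals ranged from 14278794 to 16982978 counts in neoSFs and from 28684754 to 35564261 in monoiPSCs, and 3 counts, taken here as the detection floor, correspond to an NRC of 4.75 to 5.85 in neoSFs and 1.55 to 1.88 in monoiPSCs. Floors cover counting error only. NeoSF libraries were read in-house with shorter single-end reads and monoiPSC libraries with longer paired-end reads by a sequencing service, so platform, culture medium and cell type cannot be told apart. The labelled cell types were set beside their markers. All 7 pluripotency markers tested were higher in monoiPSCs, and 8 of 9 fibroblast markers were lower, with FBLN1 as the exception. Summed over the markers found, the NRC in neoSFs and monoiPSCs was 229 to 388 and 4596 to 15549.8 for melanocytes (mostly MITF in neoSFs and DCT in monoiPSCs), 28.8 to 212 and 64.7 to 129.9 for endothelial cells, 98.2 to 113 and 30.6 to 40.01 for macrophages, and 3.70 to 6.83 and 0 for keratinocytes (TP63 alone), and the part of such cells in the results was not tested. A gene was tested if its NRC reached 20 in both neoSF or in all 4 monoiPSC libraries, which left 13072 genes. POU5F1, SOX2, NANOG, LIN28A and PRDM14 were under that NRC in both neoSF libraries, so their direction was fixed by the filter. PODXL, at 30.3 and 14.5 in the FD2M1 and LSD1 neoSFs, also passed through the monoiPSC libraries alone. SALL4 passed through both groups. Among fibroblast markers COL6A3 and TWIST2 passed through the neoSF libraries alone, which fixed their direction as well. The test was the quasi-likelihood test of edgeR, with TMM scaling of the counts. Differential expression (DE) required a fold change of 2 or more and a p, adjusted over those genes by the Benjamini-Hochberg method, no higher than 0.05. Log2 fold changes (log2FC) are those of this fit, monoiPSCs over neoSFs, each with its standard error (SE) where the member is described in full.

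The large cytosolic chaperones HSPA8, HSP90AA1, HSP90AB1 and HSPH1, the mitochondrial chaperonin HSPD1 and the cytosolic chaperonin subunits CCT4 and CCT8 were higher in monoiPSCs, by 2.28 to 4.03 times. The ER genes DNAJB9 and HSPA13, the small heat shock protein HSPB7, HSPA12B and the BAG genes BAG5 and BAG2 were lower in monoiPSCs. Of the 74 members, 68 were tested. DE members numbered 23, with 14 higher and 9 lower in monoiPSCs, which is 20.6% and 13.2% of those tested. Over all genes tested, 45.9% were DE, 24.3% higher and 21.6% lower, so the share of DE members was below the background in either direction. The median log2 fold change was 0.11 over the members and 0.08 over all genes tested. All 4 monoiPSC libraries lay above both neoSF libraries for 22 members and below them for 23, against 36.1% and 37.1% of all genes, and 73.2% of all genes lay apart in either direction. A further 11 members had an adjusted p of at most 0.05 and a change of less than 2 times. In bulk samples fewer cells of a type and less RNA per cell cannot be told apart. Scaling by total counts alone moved the median of all genes up by 0.52 on the log2 scale and gave 24 higher and 6 lower members, beside 4786 higher and 1931 lower of all genes. Under it DNAJC18, BAG2 and DNAJC13 lost their call as lower.

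**Figure D1:**
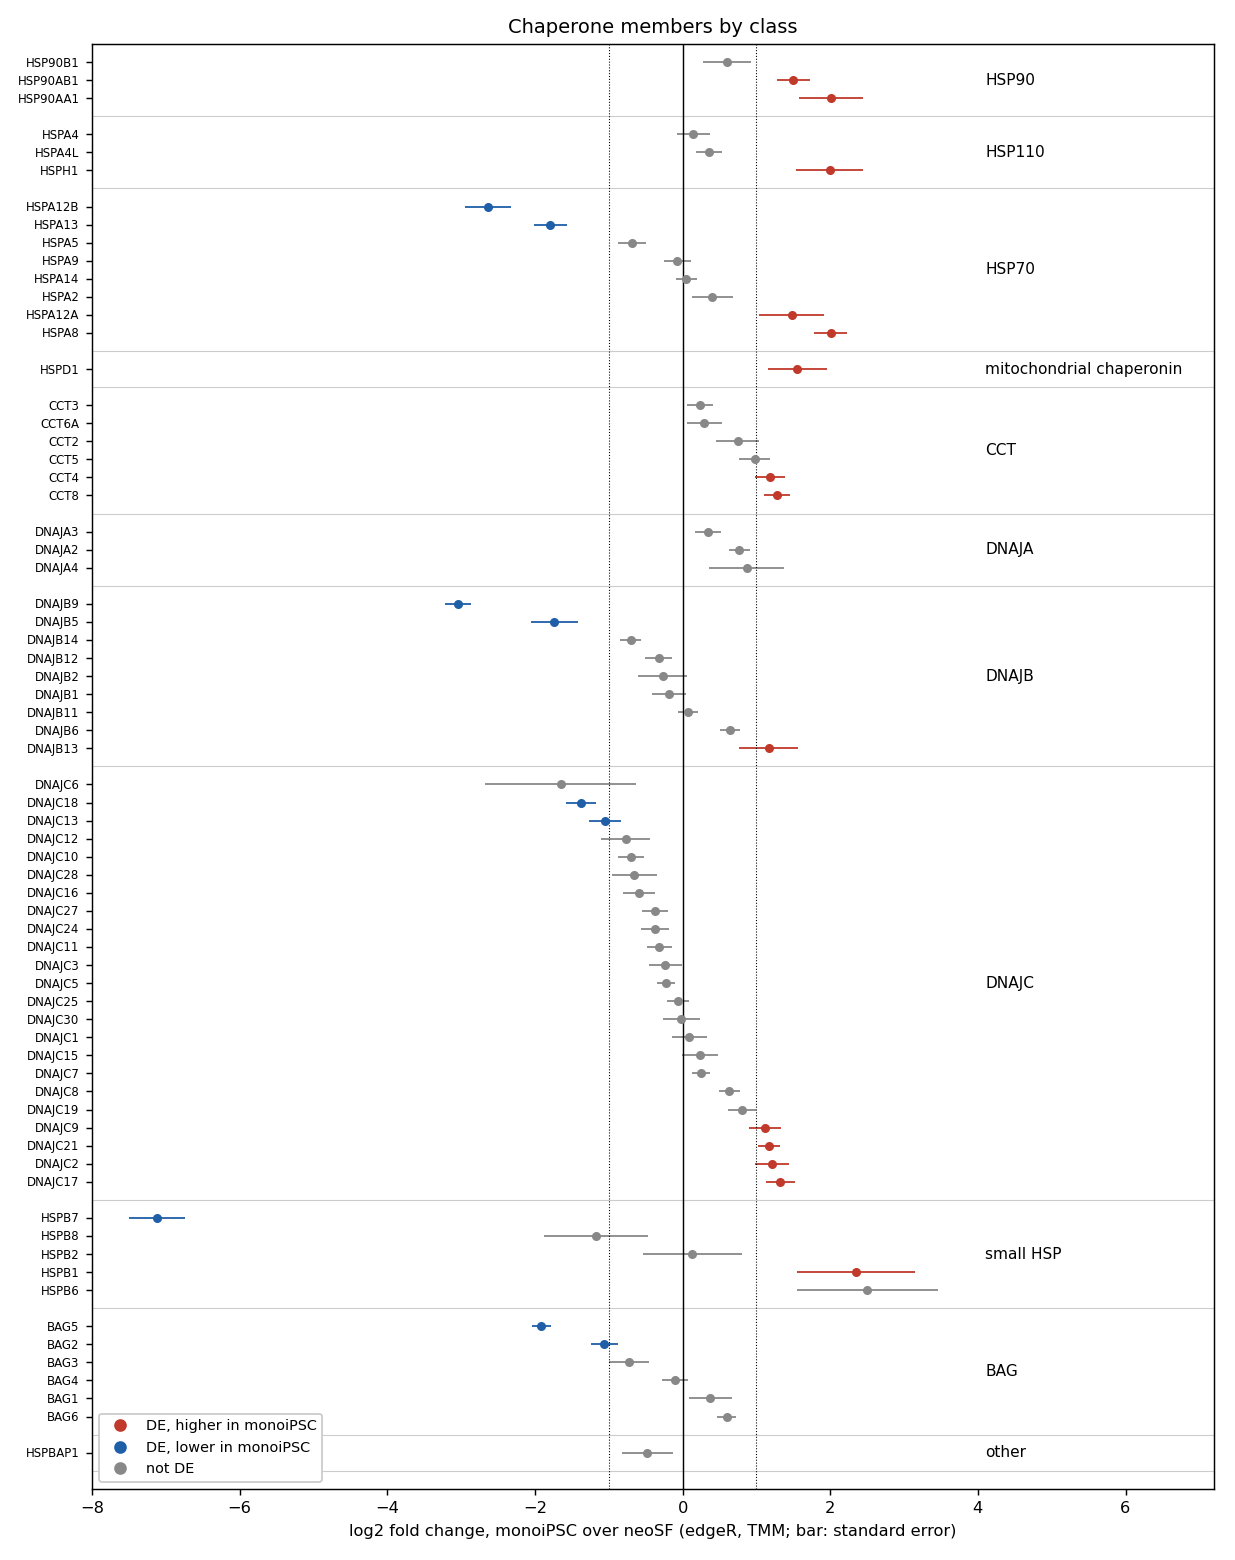
Log2 fold change, monoiPSC over neoSF, of the 68 tested members by class, on the horizontal axis, with points at the edgeR estimate, bars for the standard error and dotted lines at a fold change of 2. Red and blue points are the 14 higher and 9 lower DE members, and HSPB7 at -7.12 lies farthest from 0.

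The members together took a larger share of the reads in monoiPSCs. Their share of all counts was 0.892% and 0.791% in the FD2M1 and LSD1 neoSFs, and 2.11% and 2.09% in the FD2M1 line and 1.77% and 1.69% in the LSD1 line at passages 15 and 25. The groups did not overlap (two-sided exact permutation p = 0.0667, the lowest possible for 4 libraries against 2). HSPA8 was at 0.0654% to 0.0750% of the counts in neoSFs and 0.342% to 0.458% in monoiPSCs. Without HSPA8 and HSP90AB1 the share was 0.648% to 0.723% in neoSFs and 1.02% to 1.27% in monoiPSCs. A share of reads depends on what else a library holds. The collagen gene COL1A1 had 480874 of 14278794 counts in the FD2M1 neoSFs and 738797 of 16982978 in the LSD1 neoSFs. It had at most 4583 counts in a monoiPSC library, and its part in the difference was not tested.

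HSPA8, the constitutive cytosolic HSP70 (HSC70; gene 100030633, chromosome 4 of MonDom5, the assembly of the files), had an NRC of 20886 and 17599.6 in the FD2M1 and LSD1 neoSFs. It was 79812 and 64389 in the FD2M1 and LSD1 lines at passage 15 and 82451 and 62644 at passage 25. The monoiPSC values were all above the neoSF values, with the FD2M1 line above the LSD1 line. The log2 fold change was 2.01 (SE 0.22, adjusted p = 0.000259), or 4.02 times. HSPA8 stayed DE in all 14 alternative settings, with a log2 fold change between 1.89 and 2.53.

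Of the other HSP70 genes tested, HSPA12A was DE and higher, HSPA12B and HSPA13 were DE and lower, and HSPA2, HSPA5, HSPA9 and HSPA14 were not DE. HSPA2, a relative of HSPA8 known for its role in spermatogenesis, had an NRC of 1081 (FD2M1) and 793 (LSD1) in neoSFs and 946 at passage 15 and 1342 at passage 25 of the FD2M1 line and 836 and 1512 at the same passages of the LSD1 line, so that the groups overlapped and the adjusted p was 0.24. HSPA14, which pairs with DNAJC2 at the ribosome, gave a log2 fold change of 0.05 (adjusted p = 0.791). HSPA9, the mitochondrial HSP70 also called mortalin (gene 100020208, chromosome 1), had an NRC of 8975 in neoSFs of FD2M1 and 11402 in those of LSD1 and 8276 (FD2M1) and 10483 (LSD1) in monoiPSCs at passage 15 and 9311 and 8202 at passage 25, with a log2 fold change of -0.07 (adjusted p = 0.742) and overlapping groups. The distant relatives HSPA12A and HSPA12B moved in opposite directions. HSPA12A was low, at an NRC of 21.5 and 23.2 in neoSFs and 36.9 to 75.9 in monoiPSCs, and was DE and higher at 1.48 (adjusted p = 0.0209), but not without either neoSF library (adjusted p = 0.0921 without FD2M1 and 0.0745 without LSD1). HSPA12B (gene 100012880, chromosome 1), known mainly from endothelial cells, fell from 941 and 1396 in the FD2M1 and LSD1 neoSFs to 175 and 257 in the FD2M1 line and 119.8 and 152 in the LSD1 line at passages 15 and 25. Every monoiPSC value was below both neoSF values, and the log2 fold change was -2.64 (SE 0.31, adjusted p = 0.000358). Of the endothelial markers, CDH5 had 0 counts in both neoSF libraries, PECAM1 had an NRC of 1.95 in FD2M1 and 0 in LSD1, and KDR had 210.4 and 28.8. The part of endothelial cells in the HSPA12B values was not tested.

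Of the HSP90 genes, the cytosolic pair rose and the ER form was not DE. HSP90AA1, the heat-inducible cytosolic HSP90 alpha (gene 100017761, chromosome 1), had an NRC of 3145 (FD2M1) and 2961 (LSD1) in neoSFs, and 17687 and 6625 in the FD2M1 and LSD1 lines at passage 15 and 13692 and 7978 at passage 25. All 4 monoiPSC libraries were above both neoSF libraries, and both FD2M1 passages were above both LSD1 passages. The log2 fold change was 2.01 (SE 0.43, adjusted p = 0.00512). HSP90AB1, the constitutive HSP90 beta (gene 100013102, chromosome 2), had an NRC of 26302 in neoSFs of FD2M1 and 20914 in those of LSD1, and 71454 at passage 15 and 67859 at passage 25 of the FD2M1 line and 50809.5 and 59567 at the same passages of the LSD1 line. Its groups did not overlap either, and the log2 fold change was 1.50 (SE 0.23, adjusted p = 0.00101). HSP90B1, the ER form GRP94 (gene 100014854, chromosome 8), had an NRC of 24584 and 10455 in the FD2M1 and LSD1 neoSFs, and 23190.3 (FD2M1) and 23217 (LSD1) in monoiPSCs at passage 15 and 28702 and 24024 at passage 25. The neoSF values differed by 2.35 times and the FD2M1 neoSFs lay within the monoiPSC range, so the call depended on the reference: log2 fold change 0.60 (SE 0.33, adjusted p = 0.146) with all libraries, 1.33 (adjusted p = 0.00432) without the FD2M1 neoSFs and 0.11 (adjusted p = 0.693) without the LSD1 neoSFs.

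HSPH1, the heat-inducible HSP110 that reloads HSP70 with ATP (gene 100020437, chromosome 4), had an NRC of 1199.6 (FD2M1) and 731 (LSD1) in neoSFs, and 5934 and 3650.0 in the FD2M1 line and 2381 and 2385 in the LSD1 line at passages 15 and 25. All monoiPSC libraries were above both neoSF libraries, and FD2M1 at passage 15 was the highest. The log2 fold change was 1.99 (SE 0.45, adjusted p = 0.00672). Its relatives HSPA4 and HSPA4L were not DE, at log2 fold changes of 0.14 (adjusted p = 0.6) and 0.36 (adjusted p = 0.111).

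HSPD1, the HSP60 subunit of the mitochondrial chaperonin (gene 100022262, chromosome 4), had an NRC of 7837 in neoSFs of FD2M1 and 4504 in those of LSD1, and 22965 and 11985 in the FD2M1 and LSD1 lines at passage 15 and 21345 and 11321 at passage 25. The groups did not overlap, although the LSD1 line at passage 25 exceeded the FD2M1 neoSFs by less than 2 times. The log2FC of 1.55 (SE 0.40, adjusted p = 0.0115) lost its call without the LSD1 neoSFs, at 1.21 (adjusted p = 0.0731).

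The CCT chaperonin folds actin and tubulin in the cytosol. The 6 subunits tested had positive log2 fold changes, beside 6848 of the 13072 genes tested. Of the 7 CCT genes, 6 were tested, 2 were DE and higher, against 24.3% of all genes, and none was lower, against 21.6%. The median log2 fold change was 0.86, and single values ran from 0.24 for CCT3 to 1.28 for CCT8. CCT8 (gene 100012067, chromosome 4) had an NRC of 5381 and 4899.7 in the FD2M1 and LSD1 neoSFs, and 12776 at passage 15 and 12898 at passage 25 of the FD2M1 line and 10624 and 10358 at the same passages of the LSD1 line. Every monoiPSC value lay above both neoSF values, which gave a log2FC of 1.28 (SE 0.18, adjusted p = 0.000685). CCT4 (gene 100031910, chromosome 1) had 3747 (FD2M1) and 3238 (LSD1) in neoSFs, and 8692 (FD2M1) and 6542 (LSD1) in monoiPSCs at passage 15 and 8330.4 and 6187 at passage 25. Both groups were again apart, at 1.19 (SE 0.20, adjusted p = 0.0019). CCT5 was just under the fold threshold at 0.98 (adjusted p = 0.00514), and the adjusted p of CCT2 was 0.0556. CCT3 and CCT6A overlapped between the groups, at 0.24 (adjusted p = 0.289) and 0.29 (adjusted p = 0.303). TCP1, the CCT1 subunit that the symbol rule does not take, gave 0.97 (adjusted p = 0.00303), also just under 2 times. Differences between subunits were not tested. CCT6B, a testis-enriched copy of CCT6A, was not tested, with 0 to 6 counts in a library. Reads shared between close copies, such as HSP90AA1 with HSP90AB1, HSPA8 with HSPA2 or CCT6A with CCT6B, may have been split or discarded in the counting, so the values of these genes are uncertain to that extent.

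**Figure D2:**
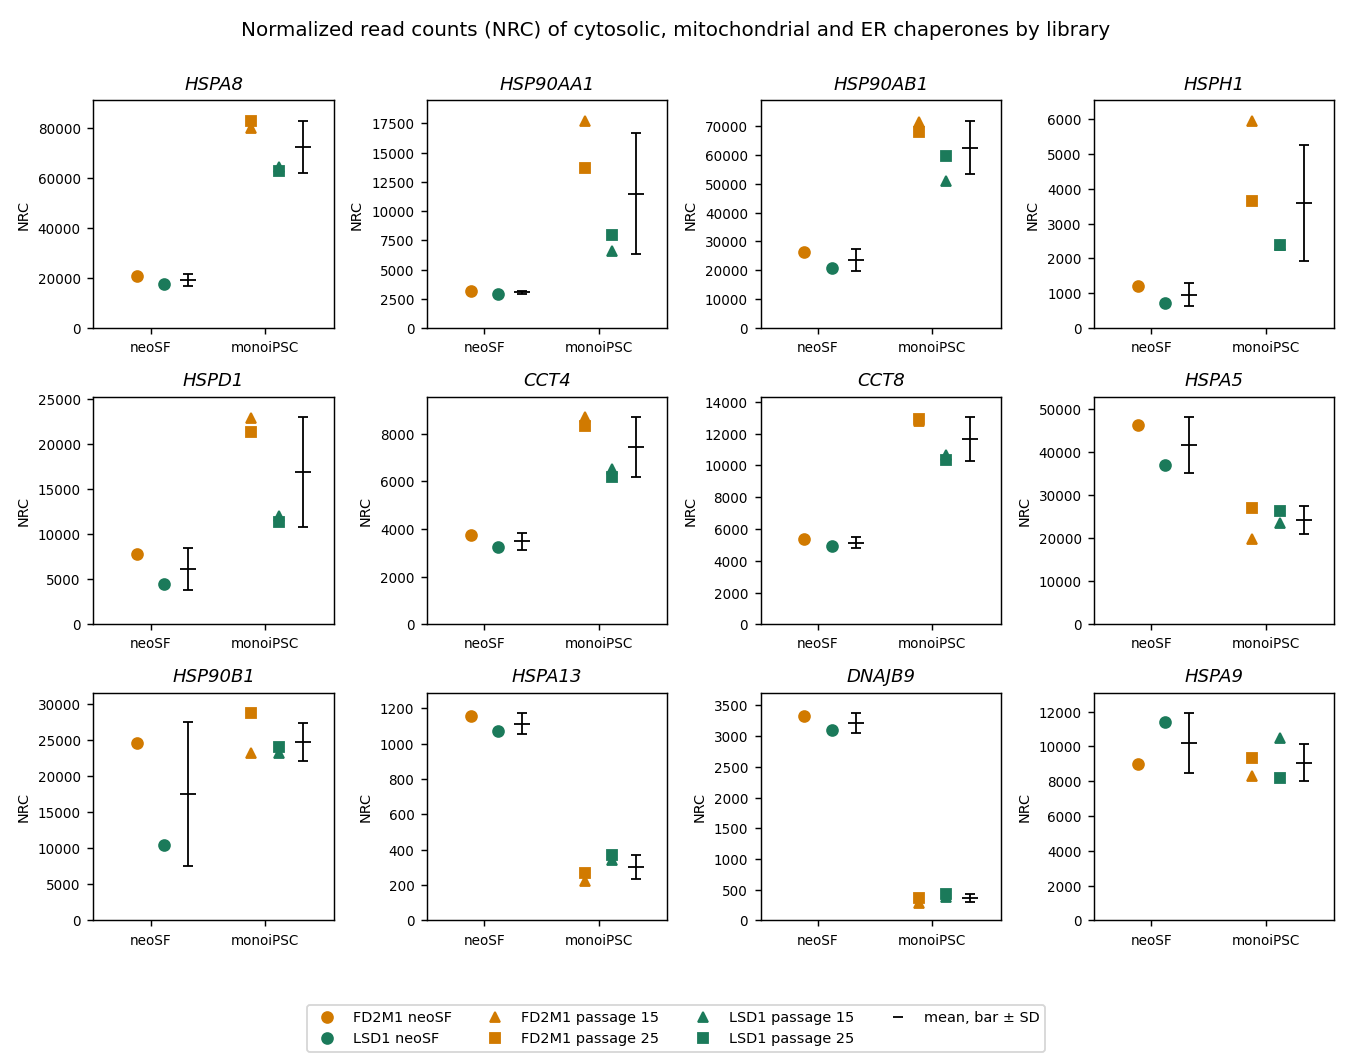
NRC of 12 cytosolic, mitochondrial and ER chaperones in each library, on a linear vertical axis from 0, with circles for neoSFs, triangles for passage 15, squares for passage 25, orange for FD2M1 and green for LSD1, and the group mean ± SD at the right of each group. HSPA8, HSP90AA1, HSP90AB1, HSPH1, HSPD1, CCT4 and CCT8 are higher in all 4 monoiPSC libraries, HSPA5, HSPA13 and DNAJB9 are lower, and HSP90B1 and HSPA9 overlap.

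Of 8 ER lumen members, 2 were DE and lower, DNAJB9 and HSPA13, against 21.6% of all genes. None was DE and higher, against 24.3% of all genes. Grouped by location, a grouping made after the values were seen and given without a test, 8 members act in the ER lumen (HSP90B1, HSPA5, HSPA13, DNAJB9, DNAJB11, DNAJC1, DNAJC3 and DNAJC10). Their median log2 fold change was -0.46, which turned to 0.064 with total-count scaling. HSPA5, the ER HSP70 known as BiP (gene 100015941, chromosome 1), had an NRC of 46257 in neoSFs of FD2M1 and 37126 in those of LSD1, and 19803 and 26984 in the FD2M1 line and 23664 and 26393 in the LSD1 line at passages 15 and 25. All monoiPSC values were below both neoSF values, and the log2FC of -0.69 (SE 0.19, adjusted p = 0.0158) passed the p threshold but not the 2-fold threshold. DNAJB9, a J-domain partner of BiP induced by ER stress (gene 100010703, chromosome 8), had 3324 and 3097 in the FD2M1 and LSD1 neoSFs, and 285 and 383 in the FD2M1 and LSD1 lines at passage 15 and 359.5 and 427 at passage 25. It was 8.26 times lower in monoiPSCs, with log2FC -3.05 (SE 0.18, adjusted p = 2.23e-05). HSPA13, a microsomal HSP70 relative (gene 100010447, chromosome 4), had 1155 (FD2M1) and 1073 (LSD1) in neoSFs, and 224 at passage 15 and 266 at passage 25 of the FD2M1 line and 344 and 368 at the same passages of the LSD1 line. The groups were far apart, at -1.79 (SE 0.23, adjusted p = 0.000448). DNAJC10, an ER disulfide reductase with a J domain, gave -0.70 (adjusted p = 0.00908), under the 2-fold threshold. DNAJB11, DNAJC1 and DNAJC3, the other BiP partners, had log2 fold changes between -0.23 and 0.09 and were not DE.

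Genes of ER folding and the unfolded protein response outside the rule were taken from a list chosen by function. Of 13 tested genes, 5 were DE and lower, against 21.6% of all genes, and none was higher, against 24.3%. Their median log2FC lay at -0.30. The lower genes, named because they are few and so after their values were seen, were HERPUD1 at -1.78, an ER-associated degradation component, SDF2L1 at -1.49, which acts with BiP, P4HB at -1.36, a disulfide isomerase and subunit of the collagen prolyl hydroxylase, XBP1 at -1.04 and ATF6 at -1.04, both transcription factors of the response. HERPUD1 alone of the 5 was called in all 14 alternatives. P4HB and SDF2L1 lost their call with total-count scaling, with a log2FC of -0.84 and -0.97. XBP1 lost it in 7 of 14 alternatives, including without either neoSF library (-1.04, adjusted p = 0.11 without FD2M1 and -1.04, adjusted p = 0.112 without LSD1) and without LSD1 at passage 15 or FD2M1 at either passage. ATF6 lost it in 6, including with the strain block (-0.998, adjusted p = 0.00175), without the LSD1 neoSFs (-0.55, adjusted p = 0.125) and without FD2M1 at either passage. The collagen chaperone SERPINH1, also called HSP47, had an NRC of 216581 in neoSFs of FD2M1 and 142425 in those of LSD1, and 47237 (FD2M1) and 58365 (LSD1) in monoiPSCs at passage 15 and 56516 and 64333 at passage 25. It was lower in every monoiPSC library, at -1.57 (SE 0.23, adjusted p = 0.000848). FKBP10, a prolyl isomerase for collagen, was lower at -3.45 (adjusted p = 1.93e-05). HYOU1, the HSP110 of the ER, was not DE, at 0.28 (adjusted p = 0.259).

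HSPD1 was the 1 DE gene, a higher one, among 7 mitochondrial members, against 24.3% higher and 21.6% lower of all genes. Of 7 members that act in mitochondria (HSPD1, HSPA9, DNAJA3, DNAJC11, DNAJC15, DNAJC19 and DNAJC30), grouped in the same way after the values were seen, the median log2 fold change was 0.23, and 0.75 with total-count scaling. DNAJC19 and DNAJC15, J-domain proteins of the protein import motor, gave 0.81 (adjusted p = 0.00795) and 0.23 (adjusted p = 0.433). DNAJA3, the J-domain partner of HSPA9, gave 0.35 (adjusted p = 0.118). Among mitochondrial partners outside the rule (TRAP1, CLPB, CLPX and LONP1), none of the 4 was DE, with a median log2 fold change of 0.47. GRPEL2, a nucleotide exchange factor of mitochondrial HSP70, was the 1 DE gene of 5 HSP70 partners tested, at 1.04 (adjusted p = 0.0231), and lost its call in 8 of 14 alternatives, among them DESeq2 (0.99, adjusted p = 0.0173), without the FD2M1 neoSFs (1.12, adjusted p = 0.0646), without the LSD1 neoSFs (0.95, adjusted p = 0.102) and without LSD1 at passage 15 (0.97, adjusted p = 0.0506).

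J-domain proteins, the largest group, were mostly not DE, and over all genes tested 45.9% were DE. In the DNAJA class none of 3 was DE, with DNAJA2, a general cytosolic partner of HSPA8, at 0.77 (adjusted p = 0.0024). In the DNAJB class 9 of 10 were tested. Of these 1 was higher and 2 were lower, or 11.1% and 22.2%, against 24.3% and 21.6% of all genes. DNAJB5 (gene 100020805, chromosome 6) had 773 and 1581 in the FD2M1 and LSD1 neoSFs, and 324 and 323 in the FD2M1 line and 242 and 436 in the LSD1 line at passages 15 and 25, all monoiPSC values below both neoSF values, with log2FC -1.74 (SE 0.32, adjusted p = 0.00261). DNAJB1, the main heat-inducible partner of HSPA8, was not DE. Its NRC was 1618 (FD2M1) and 1529.5 (LSD1) in neoSFs, and 1582 and 888 in the FD2M1 and LSD1 lines at passage 15 and 1400.5 and 1311 at passage 25, at -0.18 (adjusted p = 0.505). DNAJB6, which suppresses aggregation, gave 0.64 (adjusted p = 0.00496), under the 2-fold threshold. DNAJB13, a protein of motile cilia and sperm flagella, was low, at an NRC of 25.8 and 41.3 in neoSFs and 52.5 to 84.3 in monoiPSCs. Its call as higher, at 1.17 (adjusted p = 0.035), was lost in 6 of 14 alternatives, including without the FD2M1 neoSFs (0.86, adjusted p = 0.175). DNAJB8 had 0 counts in all 6 libraries.

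In the DNAJC class 23 of 26 were tested. Of these 4 were higher and 2 lower, or 17.4% and 8.70%, against 24.3% and 21.6% of all genes. The median log2 fold change was -0.23, which turned to 0.30 with total-count scaling. DNAJC2, which sits on the ribosome with HSPA14 (gene 100013760, chromosome 8), had 456 in neoSFs of FD2M1 and 325 in those of LSD1, and 916 at passage 15 and 796 at passage 25 of the FD2M1 line and 966 and 698 at the same passages of the LSD1 line. Every monoiPSC library was above both neoSF libraries, at 1.21 (SE 0.22, adjusted p = 0.00263), and at 0.99, just under 2 times, without the LSD1 neoSFs. DNAJC17, linked to pre-mRNA splicing (gene 100027475, chromosome 1), had 248 and 191 in the FD2M1 and LSD1 neoSFs, and 512 (FD2M1) and 527 (LSD1) in monoiPSCs at passage 15 and 509 and 503 at passage 25. The 4 monoiPSC values lay close together, at 1.32 (SE 0.20, adjusted p = 0.000962). DNAJC21, needed for 60S ribosome maturation, rose at 1.17 (adjusted p = 0.000465), and DNAJC9, a histone H3 and H4 co-chaperone, at 1.12 (adjusted p = 0.00324), although DNAJC9 lost its call without the LSD1 neoSFs (0.83, adjusted p = 0.0167). DNAJC8, another splicing-related member, gave 0.63 (adjusted p = 0.00734), under 2 times. Of the lower pair, DNAJC18 (gene 100025634, chromosome 1), an ER membrane protein, had 498 (FD2M1) and 520.4 (LSD1) in neoSFs, and 205 and 180.0 in the FD2M1 line and 191 and 158 in the LSD1 line at passages 15 and 25, at -1.38 (SE 0.20, adjusted p = 0.000958). DNAJC13, which acts on endosomes (gene 100030184, chromosome 8), had 2583 in neoSFs of FD2M1 and 2964 in those of LSD1, and 1451 and 1317 in the FD2M1 and LSD1 lines at passage 15 and 1382 and 858 at passage 25, at -1.05 (SE 0.22, adjusted p = 0.00467), so close to 2 times that it was lost without the LSD1 neoSFs (-0.94) and without LSD1 at passage 25 (-0.92). DNAJC6, the clathrin-uncoating factor auxilin, had 3 to 40 counts in monoiPSCs and was not DE, with a standard error of 1.02. DNAJC22, DNAJC5B and DNAJC5G were under the filter, with at most 18 counts in any library.

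BAG proteins release clients from HSP70 or steer them to degradation or autophagy. Of 6 BAG genes tested, 2 were DE and lower, against 21.6% of all genes, and none was higher, against 24.3%. BAG5 (gene 100021006, chromosome 1) had 2451 and 2695 in the FD2M1 and LSD1 neoSFs, and 653 at passage 15 and 583 at passage 25 of the FD2M1 line and 658 and 662 at the same passages of the LSD1 line. The monoiPSC values were nearly equal and far below those of neoSFs, at -1.91 (SE 0.13, adjusted p = 3.88e-05). BAG2, an inhibitor of the ubiquitin ligase STUB1 (gene 100018820, chromosome 2), had 929.6 (FD2M1) and 1246 (LSD1) in neoSFs, and 493 (FD2M1) and 505 (LSD1) in monoiPSCs at passage 15 and 526 and 428 at passage 25. Its log2FC of -1.06 (SE 0.18, adjusted p = 0.00174) dropped under 2-fold without the LSD1 neoSFs (-0.82). STUB1 itself gave -0.83 (adjusted p = 0.00191), under the 2-fold threshold. BAG3, the heat-inducible partner of HSPB8 in selective autophagy, had 1167 in neoSFs of FD2M1 and 698 in those of LSD1, and 689 and 506 in the FD2M1 line and 417 and 493 in the LSD1 line at passages 15 and 25. Its FD2M1 passage 15 value nearly reached the LSD1 neoSFs, and the log2 fold change of -0.73 (adjusted p = 0.0481) was under 2-fold. BAG6, which guards membrane proteins before insertion, was above neoSFs in all 4 monoiPSC libraries, at 0.60 (adjusted p = 0.00613). BAG1 and BAG4 overlapped between the groups, at 0.37 (adjusted p = 0.297) and -0.11 (adjusted p = 0.613).

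Of the 5 small heat shock proteins tested, HSPB7 was DE and lower and HSPB1 DE and higher, and HSPB2, HSPB6 and HSPB8 were not DE. HSPB7, known as a cardiovascular small heat shock protein (gene 100017940, chromosome 4), had an NRC of 2261 and 4125 in the FD2M1 and LSD1 neoSFs, and 14.0 and 15.5 in the FD2M1 and LSD1 lines at passage 15 and 28.2 and 27.8 at passage 25. It stood at 25 to 54 counts in the monoiPSC libraries, above the floor, and was 139 times lower, with log2FC -7.12 (SE 0.38, adjusted p = 1.69e-05). HSPB1, the heat-inducible HSP27 (gene 100029144, chromosome 2), had 98.9 (FD2M1) and 39.9 (LSD1) in neoSFs, and 401 at passage 15 and 235 at passage 25 of the FD2M1 line and 90.1 and 589.9 at the same passages of the LSD1 line. LSD1 at passage 15 lay below the FD2M1 neoSFs, so the groups overlapped, and the log2FC of 2.35 (SE 0.80, adjusted p = 0.0355) was called but lost its call in 5 of 14 alternatives, among them without the FD2M1 neoSFs (3.14, adjusted p = 0.0512), without the LSD1 neoSFs (1.83, adjusted p = 0.167), without FD2M1 at passage 15 (2.24, adjusted p = 0.0663) and without LSD1 at passage 25 (1.88, adjusted p = 0.0629). HSPB8, the BAG3 partner, had 499.9 in neoSFs of FD2M1 and 1100.4 in those of LSD1, and 237 (FD2M1) and 185 (LSD1) in monoiPSCs at passage 15 and 127 and 786 at passage 25. LSD1 at passage 25 stood above the FD2M1 neoSFs and the other 3 monoiPSC libraries below both neoSF libraries, so HSPB8 was not DE at -1.17 (adjusted p = 0.184) but was lower at -2.05 (adjusted p = 0.00554) without that library. HSPB6, also called HSP20 and known from muscle, had 11.7 and 8.71 in the FD2M1 and LSD1 neoSFs, and 23.6 and 35.1 in the FD2M1 line and 29.4 and 137 in the LSD1 line at passages 15 and 25. HSPB6 passed the filter through the monoiPSC libraries alone, so lying above neoSFs in all of them was fixed by the filter. It just missed the p threshold, at 2.50 (adjusted p = 0.0529). HSPB6 was called higher in 7 of 14 alternatives, among them DESeq2 (2.46, adjusted p = 0.0156), limma on the deposited values (2.08, adjusted p = 0.042), without FD2M1 at passage 15 (2.75, adjusted p = 0.0399) and without LSD1 at passage 25 (1.55, adjusted p = 0.0292). HSPB2, a muscle small heat shock protein, had 210.0 (FD2M1) and 41.4 (LSD1) in neoSFs, and 137 and 134 in the FD2M1 and LSD1 lines at passage 15 and 58.7 and 182 at passage 25, so that all 4 monoiPSC values lay between those of the neoSFs, with an adjusted p of 0.871. HSPB3, likewise a muscle gene, was under the filter, with 4 and 0 counts in neoSFs and 3 to 30 in monoiPSCs.

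LSD1 at passage 25 had the highest value of the 4 monoiPSC libraries for HSPB1, HSPB2, HSPB3, HSPB6 and HSPB8. Among monoiPSC libraries the skeletal muscle markers found, other than MYF5, were also highest there. MYOG was high at both LSD1 passages, at 4135 and 5549 at passages 15 and 25, against 1527 and 985 in the FD2M1 line. Its neoSF values were 206 in FD2M1 and 22.2 in LSD1. Of 5 muscle markers tested, MYOG was DE and higher, at 4.88 (adjusted p = 0.00724), and ACTC1 was DE and lower. The summed NRC of the 6 of 8 markers found was 4160.4 and 2513 in the FD2M1 line and 7095 and 20806 in the LSD1 line at passages 15 and 25. Desmin (DES), an intermediate filament of muscle, was at 563 at passage 15 and 315 at passage 25 of the FD2M1 line and 769 and 4213 at the same passages of the LSD1 line, and MYOD1, the myogenic regulator, at 103 (FD2M1) and 99.4 (LSD1) in monoiPSCs at passage 15 and 35.1 and 591 at passage 25. None of the 6 was at 0 in a monoiPSC library, and MYF5 was the lowest, at an NRC of 1.03 to 8.94. The part of muscle-type cells in the small heat shock protein values was not tested. In neoSFs the summed NRC was 18196 and 21917, nearly all of it ACTC1, at 16344 and 21468. CRYAB, the small heat shock protein whose gene neighbours HSPB2 in the RefSeq annotation of mMonDom1.pri, had 8029.8 in neoSFs of FD2M1 and 605 in those of LSD1, and 199.9 and 120.4 in the FD2M1 line and 273 and 873 in the LSD1 line at passages 15 and 25. The FD2M1 neoSFs were far above the LSD1 neoSFs for both CRYAB and HSPB2, and the LSD1 line at passage 25 exceeded the LSD1 neoSFs for CRYAB. The log2FC of CRYAB, -3.46 (SE 1.01, adjusted p = 0.0191), rested on the FD2M1 neoSFs (-0.63, adjusted p = 0.591 without them). Its call was lost in 5 of 14 alternatives, with the strain block among them (-3.72, adjusted p = 0.0665) and the calculation without LSD1 at passage 15 (-3.34, adjusted p = 0.0569). CRYAA, the alpha-crystallin of the lens, had 0 counts in both neoSF libraries and an NRC of 74.2 to 196 in monoiPSCs.

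**Figure D3:**
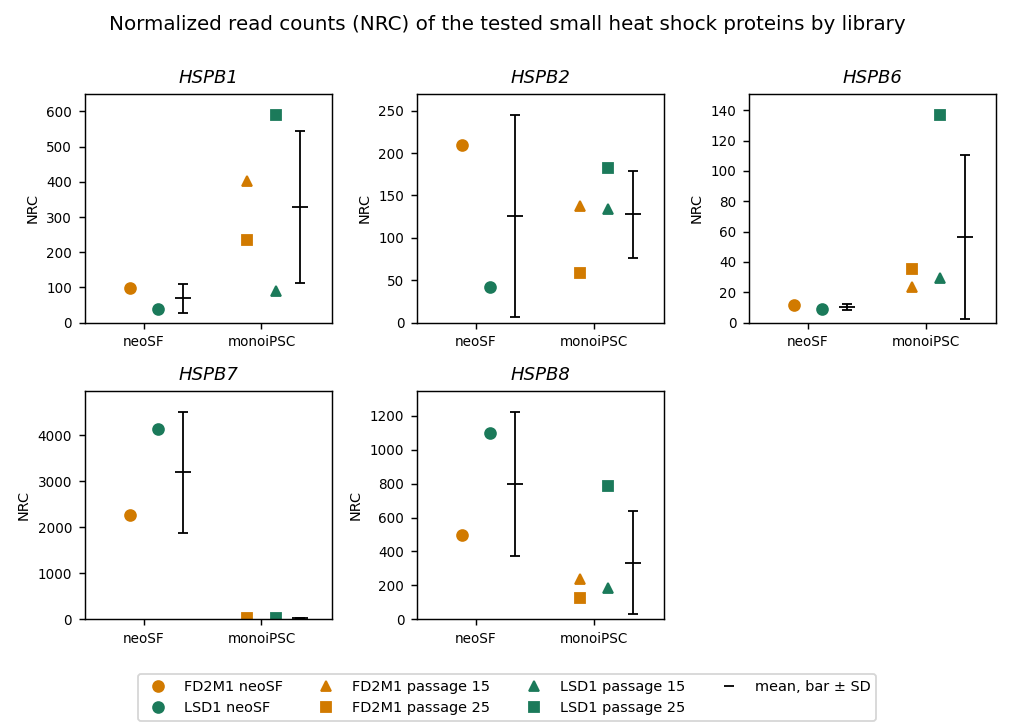
NRC of the 5 tested small heat shock proteins in each library, on a linear vertical axis from 0, with symbols as circles for neoSFs, triangles for passage 15, squares for passage 25, orange for FD2M1 and green for LSD1, and the group mean ± SD beside each group. LSD1 at passage 25 is the highest monoiPSC library for HSPB1, HSPB2, HSPB6 and HSPB8, while HSPB7 is near 0 in all 4 monoiPSC libraries.

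Regulators and partners of the members outside the rule were counted from lists chosen by function. The heat shock factors were not DE: HSF1, the main activator of heat shock genes, had 407 and 336 in the FD2M1 and LSD1 neoSFs, and 305 and 232 in the FD2M1 and LSD1 lines at passage 15 and 232 and 151 at passage 25, at -0.59 (adjusted p = 0.122), and HSF2 gave 0.48 (adjusted p = 0.0943). HSBP1, a small binding partner of HSF1, was DE and higher at 1.12 (adjusted p = 0.00211), but under 2 times without the FD2M1 neoSFs (0.85, adjusted p = 0.0111). Of 11 HSP90 partners tested, 2 were higher and 1 lower, with a median log2 fold change of 0.16. FKBP4, the immunophilin FKBP52 of steroid receptor complexes, had 2317 (FD2M1) and 1703 (LSD1) in neoSFs, and 14926 at passage 15 and 13612 at passage 25 of the FD2M1 line and 8491 and 11145 at the same passages of the LSD1 line. It was higher in every monoiPSC library, at 2.68 (SE 0.30, adjusted p = 0.000251). The other DE partners of HSP90 were TTC4, which was higher at 1.42 (adjusted p = 0.00115), and UNC45A, a myosin chaperone that binds HSP90, which was lower at -1.45 (adjusted p = 0.000838) but not called with total-count scaling (-0.93, adjusted p = 0.00748). Among chaperonin partners PFDN2, a subunit of prefoldin, was the 1 DE gene of 6 tested, at 1.63 (adjusted p = 0.00138). Over all partner lists, 6 of 47 tested genes were DE and higher and 9 lower, or 12.8% and 19.1%, against 24.3% and 21.6% of all genes.

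Within the monoiPSCs, HSP90AA1, HSPH1 and HSPD1 were higher in the FD2M1 line at both passages, with log2 differences, LSD1 over FD2M1 with passage as a covariate, of -1.09 (adjusted p = 0.136), -0.96 (adjusted p = 0.174) and -0.92 (adjusted p = 0.133). By edgeR's quasi-likelihood test with 1 residual degree of freedom none of 66 members was DE between the lines, beside 0.0% of 12252 genes, while 13 members, 19.7%, had an unadjusted p under 0.05 against 14.2% of all genes. Of the 66 members, 12, or 18.2%, had such a p and were lower in LSD1, against 7.01% of all genes: HSP90AA1, HSP90AB1, HSPH1, HSPD1, HSPA4, HSPA8, CCT2, CCT4, CCT5, CCT6A, DNAJA4 and DNAJC12. DESeq2 called HSP90AA1 alone among the members (adjusted p = 0.000167), against 1.56% of all genes, and gave HSPD1 and HSPH1 adjusted p-values of 0.000359 and 0.00441 with a fold change under 2. All 6 tested CCT subunits were lower in the LSD1 line, with log2 differences of -0.58 to -0.29, none of them past the threshold. Over all members 39 of 66 were lower in LSD1, beside 5989 of 12252 genes. In the neoSFs, with 1 library per strain and no test, the FD2M1 value of HSPH1 was 1.64 times and that of HSPD1 1.74 times the LSD1 value, while HSP90AA1 differed by 1.06 times.

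Between passages none of 66 members was DE by edgeR or DESeq2, against 0.0% and 0.971% of all genes, and 4 members had an unadjusted p under 0.05 (CCT2, DNAJA4, HSPA2 and HSPB6), or 6.06% against 9.35% of all genes. DNAJA4 and HSPA2 were higher at passage 25 in both lines, with log2 differences, passage 25 over passage 15, of 0.91 (adjusted p = 0.409) and 0.67 (adjusted p = 0.361). DNAJA4, a J-domain protein responsive to heat and sterols, had 96.7 in neoSFs of FD2M1 and 217 in those of LSD1, and 213 (FD2M1) and 155 (LSD1) in monoiPSCs at passage 15 and 450.4 and 263 at passage 25, so that the 4 monoiPSC values spread with both passage and line. The median ratio of the highest to the lowest monoiPSC library was 1.42 over the members and 5.99 over the 4 small heat shock proteins expressed in all monoiPSC libraries.

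**Figure D4:**
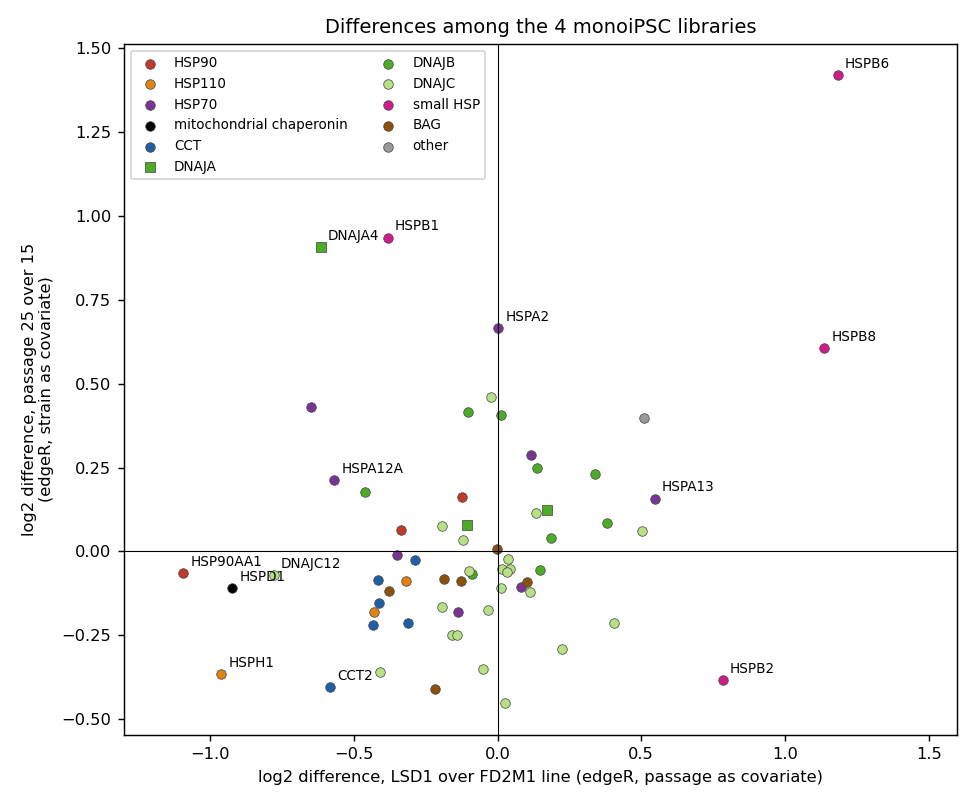
Log2 difference between the lines (LSD1 over FD2M1, horizontal) and between the passages (25 over 15, vertical) for the 66 members expressed in all 4 monoiPSC libraries, each point 1 gene coloured by class, from edgeR. HSP90AA1, HSPH1 and HSPD1 lie at the left near -1.09 to -0.92, and HSPB6 and HSPB8 at the upper right.

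The change from neoSFs to monoiPSCs was also taken within each strain. The test of the difference between strains had 1 neoSF library per strain, so its spread came only from the passages of each line. It therefore cannot show that the strains were alike. No member was DE in the test of the difference between strains, beside 0.0841% of all genes. The log2 fold change, monoiPSCs over neoSFs by NRC, was 1.96 in FD2M1 and 1.85 in LSD1 for HSPA8, 2.31 and 1.30 for HSP90AA1, and 1.96 and 1.70 for HSPH1. For the lower genes it was -6.75 and -7.56 for HSPB7 and -3.37 and -2.93 for DNAJB9. For these 5 members the groups did not overlap, so the same direction in both strains followed from that and is no further support. In single-gene exact permutation tests over the 6 libraries, which cannot give a p below 0.0667, the members with values in every library by the naming rule gave p = 0.0667, except HSP90B1 (0.267), HSPA9 (0.40) and HSPB1 (0.20). A p of 0.0667 restates that the groups did not overlap. Most of these members were named for being DE in the same libraries, so it adds no support.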

How the data were processed

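Poly(A) RNA of 2 neoSF and 4 monoiPSC libraries was sequenced. The authors aligned reads to MonDom5 and RefSeq transcripts in StrandNGS 4, removed reads of low base or mapping quality and secondary multiple matches, counted reads per gene, and deposited estimated counts (85.3% of values above 0 were not within 0.001 of a whole number) and log2 DESeq-normalized values, in which less than 1 normalized read was set to 0. How strand was used was not settled by the sources used here, so reads of overlapping or antisense genes may be mixed. Reads from near-identical copies may be lost in the mapping-quality filter.

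Counts were rounded and fitted over the whole table with edgeR 4.0.16 (R 4.3.3, TMM, quasi-likelihood), with the thresholds given above, for monoiPSCs against neoSFs, line with passage as covariate, passage with strain as covariate, and the strain by cell type interaction. Standard errors are the log2 fold change over the root of F. The NRC is the antilog of the deposited log2 value. Alternatives were RLE and total-count scaling, DESeq2 1.42.0, limma 3.58.1 on the log2 values, no filter, a raw count filter, a strain block, passages of a line summed, and leaving out each library. The fits were also run on simulated counts of 13072 genes, of which 200 were changed. For monoiPSCs against neoSFs, edgeR recovered 145 with 9 false calls, DESeq2 182 with 44 and limma 145 with 7. For passage, edgeR recovered 104 with 12 false calls.

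Libraries of a strain are paired by origin, since each line was made from neoSFs of its strain. Same-strain deviations from the group means correlated at -0.016 to 0.078 across genes. Members with values in every library were the HSP90 genes, HSPH1, HSPD1, HSPA5, HSPA8, HSPA9, and per class the 2 DE members with the highest and the 2 with the lowest log2 fold change if the group with the higher level averaged an NRC of 100 or more. Partners named were those DE by at least 4 times, with CRYAB, SERPINH1, HYOU1, HSF1, HSF2 and TCP1. Other genes given with values were chosen after the values were seen. The members and lists were chosen with earlier results of these data known. Gene names come from the files, and 72 of 74 members matched the RefSeq table. HSPE1, CCT7, DNAJA1 and DNAJB4 were not analysed here, and levels were not compared between genes because lengths were not used here.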

Additional observations from a re-analysis of the deposited data

Results flagged for a closer look

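Of 68 members examined across the 4 monoiPSC libraries, 6 had a library far from the other 3, by the gap to the nearest library over the whole range. The limit has a nominal rate of about 5% for normally distributed values, while the gaps were taken on the NRC. The share over all genes was not computed, so the count is not read as a result about the members. These were BAG5, lowest in FD2M1 at passage 25 (0.882), DNAJA3, lowest in FD2M1 at passage 15 (0.893), DNAJC28, highest in LSD1 at passage 15 (0.878), HSP90B1, highest in FD2M1 at passage 25 (0.849), HSPB6, highest in LSD1 at passage 25 (0.898), and HSPB8, highest in LSD1 at passage 25 (0.834). The distance was small in absolute terms for BAG5, at an NRC of 583 against 653 to 662, and large for HSPB6, at 137 against 23.6 to 35.1.

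In 4 members the libraries of FD2M1 moved one way between neoSFs and monoiPSCs and those of LSD1 the other. Others had opposite signs only on average and are not counted. Among them were BAG1, DNAJA4 and CCT3, whose LSD1 passages lay on either side of the LSD1 neoSFs. The share over all genes was not computed, so the count is not read as a result about the members. The log2 difference, LSD1 minus FD2M1, was 3.1 for HSPB2, -0.851 for HSPA4, -0.468 for BAG4 and 0.29 for DNAJB11. The strain by cell type interaction in edgeR's quasi-likelihood test passed the threshold for none of these, with an adjusted p of 0.389 for HSPB2 and 0.476 for HSPA4.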

How the results depend on the processing

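Of the 23 DE members, 14 kept their call under all 14 alternatives, and 33 of the 45 others stayed uncalled. The strain block (replicate block) lost or gained no member call, with 14 higher and 9 lower, lost the calls of CRYAB and ATF6 outside the members, and gave 3186 higher and 2826 lower of all genes. With total counts only, 24 members and 4786 of all genes were higher, 71.3% of DE genes were higher against 52.9%, and the median log2 fold change was 0.11 for BAG, 0.25 for DNAJB, 0.30 for DNAJC, 0.51 for HSP70 and 0.039 for HSPBAP1, all reversed, 1.39 for CCT and 1.29 for DNAJA, while HSPA9 reversed to 0.45. Calculations without the filter moved the median of all genes by 0.14. With 1 library left out at a time, higher members numbered 9 to 14, with 9 higher and 8 lower without the LSD1 neoSFs (the lost calls being DNAJC9, HSPA12A, BAG2, HSPB1, HSPD1, DNAJC2 and DNAJC13), class medians ran from 0.40 to 0.81 for DNAJA, -0.24 to -0.11 for DNAJC, -0.074 to 0.059 for HSP70 and -0.48 to 1.72 for small heat shock proteins, and HSPA9 reversed to 0.12 without the LSD1 neoSFs. The small heat shock protein median was -0.48 without the LSD1 neoSFs and -0.10 without LSD1 at passage 25, and that of HSP70 was 0.059 and 0.022. DESeq2 called 1 member between the lines. The cause of these shifts was not tested. NeoSF totals were lower than those of monoiPSCs, so the values of HSPA12A and DNAJB13, at 11 to 26 counts in neoSFs, carry a large counting error. The same holds for HSPB6, whose NRC in neoSFs was lower still.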

Other observations

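Across the 66 members expressed in all monoiPSC libraries, FD2M1 at passage 15 was the highest library for 24, or 36.4%, against 29.0% of all genes. LSD1 at passage 25 was the highest for 14, or 21.2%, against 31.3% of all genes. All 6 CCT subunits and 17 of 22 DNAJC members had a lower estimate at passage 25 than at passage 15, beside 6313 of 12252 genes, and none of these differences passed the threshold.

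The genes DNAJC6, DNAJC12 and DNAJC28 are given here as further members with low values, chosen after those values were seen. DNAJC6, the auxilin gene, had 40 and 3 counts in the FD2M1 line and 3 and 38 in the LSD1 line at passages 15 and 25. DNAJC12, a partner of the aromatic amino acid hydroxylases, had an NRC of 268 and 361 in the FD2M1 and LSD1 neoSFs and 211 and 225 in the FD2M1 line and 136 and 117 in the LSD1 line at passages 15 and 25, with a log2 fold change of -0.77 (adjusted p = 0.0797) by edgeR's quasi-likelihood test. DNAJC28 had 179 (FD2M1) and 284 (LSD1) in neoSFs and 124 and 179 in the FD2M1 and LSD1 lines at passage 15 and 127 and 120.0 at passage 25, at -0.65 (adjusted p = 0.0975).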
